A study of Mus musculus with 8 samples.

Results

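Pou5f1, Sox2, Nanog, Esrrb and Sall4 are 5 transcription factor genes at the core of the pluripotency network, described here in E14 mouse embryonic stem cells (ESCs) with and without KLF4. They were taken by symbol from the 52636 Ensembl genes counted by RNA-seq, and all 5 were among the 15517 genes that passed the filter on low counts. The other assay was RNA polymerase II HiChIP, in which neighbouring chromatin ends are ligated in the nucleus, fragments bound by the polymerase are enriched, and each sequenced junction is counted as a paired-end tag (PET) between anchor sites. An anchor pair was assigned to a gene if 1 of its anchors touched the gene or the 5 kb on either side of it. This gave 344 of the 118475 anchor pairs of the KLF4-KO pool and 93 of the 19914 anchor pairs of the WT pool.

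OCT4, the product of Pou5f1, is a POU homeodomain protein that binds DNA together with SOX2, an HMG-box protein, at a composite of the octamer and the SOX motif. NANOG, a homeodomain protein, ESRRB, an orphan nuclear receptor, and SALL4, a zinc finger protein, are known to bind many of the same enhancers in mouse ESCs, among them enhancers of the core genes themselves. KLF4, a zinc finger factor that recognises GC-rich sites, is also known to occupy many of these enhancers.

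The KLF4-KO cells were E14 cells with a knockout of KLF4, and the WT cells were E14 cells used as the KLF4 control. E14 is an ESC line grown from the blastocyst. RNA-seq had 2 libraries per genotype, and HiChIP had 1 pooled file per genotype, from 2 samples each. For every sample the labels give 2 media, both with 15% serum on gelatin. One held 10 ng/mL LIF with 1 µM of the MEK inhibitor PD0325901 and 3 µM of the GSK inhibitor CHIR99021, and the other held 1000 U/mL LIF. Which medium the harvested cells were in, how Klf4 was disrupted and whether the KO libraries came from 1 clone could not be read from the labels. The p-values measure the spread between these libraries, which the labels call biological replicates without naming separate cultures.

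Gene counts summed to 8448519 and 8287497 in the KO libraries, which carry the letters B and F, and to 9020599 and 9762190 in WT replicates 1 and 2. Klf4 had 0 reads in both KO libraries, against 2882 and 2421 reads in WT (edgeR quasi-likelihood test, FDR 0.000191). All 10 listed ESC markers were counted in every library, with Zfp42 at 4889 and 6905 reads in KO and 5310 and 5241 reads in WT. Of the 10, 3 rose in KO and 0 fell, beside 2.96% and 5.34% of all tested genes, and the median log2 fold change was 0.46. They were Utf1 and Dppa4, which are also in the target list, and Lin28a, an RNA-binding protein gene with 2032 and 2087 reads in KO, against 590 and 538 reads in WT (edgeR FDR 0.00376). Of 10 fibroblast markers, S100a4, Postn and Lum were at 0 in every library, and the summed level of the list was 1199 to 1502 CPM (counts scaled to library size) in KO and 1965 to 2987 CPM in WT, most of it Fn1. Of 21 trophoblast and primitive endoderm genes, Cdx2, Elf5, Sox7, Sox17 and Foxa2 had under 10 reads in every library, and the list summed to 366 to 421 CPM in KO and 615 to 639 CPM in WT. The 7 Y-linked genes with reads summed to 0 reads in both KO libraries, against 1931 and 1265 reads in WT, and the part of this difference in the results was not tested.

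The sequence just before the annotated start is shown for the 3 factors whose start lay inside an RNA polymerase II anchor in both pools, because these windows hold matches to motifs of the core factors or of KLF4. Each window is the 250 bases before the first annotated start on the + strand of GRCm38.p6 (RefSeq): chr17:35505782-35506031 for Pou5f1, chr3:34649745-34649994 for Sox2 and chr6:122707239-122707488 for Nanog. Capitals mark every match, on either strand, to 5 motifs: the octamer core ATGCAAA, the SOX core ACAATG, the OCT4-SOX2 composite, in which 1 base joins the reversed octamer core to the SOX core, the KLF motif GGGNGTGG and the ESRRB motif AAGGTCA. The composite contains the octamer core on the opposite strand and the SOX core, so its matches are also matches to those.
Pou5f1: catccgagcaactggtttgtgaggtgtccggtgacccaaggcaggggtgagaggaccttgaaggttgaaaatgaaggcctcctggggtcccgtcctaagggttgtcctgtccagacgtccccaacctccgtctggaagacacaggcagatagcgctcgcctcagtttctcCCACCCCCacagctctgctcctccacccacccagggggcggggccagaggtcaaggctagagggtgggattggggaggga
Sox2: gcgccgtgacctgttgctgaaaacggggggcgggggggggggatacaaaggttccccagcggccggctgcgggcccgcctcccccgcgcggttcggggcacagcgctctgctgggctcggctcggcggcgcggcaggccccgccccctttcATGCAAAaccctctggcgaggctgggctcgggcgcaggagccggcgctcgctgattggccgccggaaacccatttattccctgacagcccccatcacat
Nanog: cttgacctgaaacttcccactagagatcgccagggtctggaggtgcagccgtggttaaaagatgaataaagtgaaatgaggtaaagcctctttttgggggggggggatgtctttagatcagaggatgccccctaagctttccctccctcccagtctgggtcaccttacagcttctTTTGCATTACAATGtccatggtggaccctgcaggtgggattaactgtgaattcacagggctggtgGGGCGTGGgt

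The Nanog window held the composite 75 to 62 bases before the start and a KLF match 10 to 3 bases before it. The composite was found in 2 of 32851 windows of this length before annotated mouse starts (0.00609%), and both were windows of Nanog, whose 2 annotated starts lie close together. The Sox2 window held the octamer core 99 to 93 bases before the start, as did 4.12% of all windows in some position. The Pou5f1 window held a KLF match, CCACCCCC on this strand, 80 to 73 bases before the start, and 15.9% of all windows held a KLF match. The SOX core was in 10.7% of all windows and the ESRRB motif in 4.08%. Neither window of the 2 annotated Esrrb starts held any of the 5 motifs, which says only that these letters are not in those 250 bases. A match is a description of the sequence and not evidence of binding.

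None of the 5 core factors passed the test between KLF4-KO and WT cells, while 1288 of 15517 genes did (8.30%; 2.96% higher and 5.34% lower in KO). A missed threshold does not show that levels are equal, and the 95% interval of each factor gives the differences it holds. Transcripts of all 5 were abundant in both genotypes. Nanog and Esrrb were lower in both KO libraries than in both WT libraries, Sox2 and Sall4 were higher in both, and Pou5f1 overlapped. This makes 4 of 5 factors with libraries that did not overlap between genotypes, beside 53.5% of all tested genes (26.0% with KO above and 27.5% with KO below). In bulk libraries, fewer cells expressing a gene and less RNA per cell cannot be told apart.

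Pou5f1 (ENSMUSG00000024406, chr17:35506032-35510777 in GRCm38.p6) had 14687 and 13051 reads in the KO libraries, against 11256 and 18492 reads in the WT libraries. Scaled to TMM library size these were 1759 and 1546 CPM in KO and 1196 and 2011 CPM in WT. Both KO libraries lay between the 2 WT libraries, which were the lowest and the highest of the 4. WT replicate 2 stood at 1.68 times WT replicate 1. The log2 fold change was 0.04 (95% interval -0.70 to 0.79, edgeR FDR 0.95), an interval that holds folds of 0.616 to 1.72. Its sign was set by single libraries: it was -0.05 without KO library B and -0.29 without WT replicate 1. Pou5f1 has 5 annotated pseudogene copies, and the deposited files list reads with several alignments apart from the gene counts, so reads shared with a copy may be missing from its count.

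Sox2 (ENSMUSG00000074637, chr3:34649995-34652461) had 4606 and 4750 reads in the KO libraries, against 5026 and 4262 reads in the WT libraries. This corresponded to 552 and 563 CPM in KO and 534 and 464 CPM in WT. In CPM both KO libraries were above both WT libraries, and WT replicate 1 lay closer to KO than to WT replicate 2. The log2 fold change was 0.16 (95% interval -0.40 to 0.72, edgeR FDR 0.74). Sox2 lies inside the long non-coding gene Sox2ot, which had 14 and 20 reads in KO and 25 and 22 reads in WT. No strand setting is given for the counting. Ambiguous reads are listed apart from the gene counts, so reads assigned to both genes would enter neither count. Whether some reads counted for Sox2 came from the Sox2ot transcript cannot be read from the counts.

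Nanog (ENSMUSG00000012396, chr6:122707489-122714633) had 5181 and 4830 reads in the KO libraries, against 7377 and 7115 reads in the WT libraries, or 621 and 572 CPM in KO and 784 and 774 CPM in WT. Both KO libraries were below both WT libraries, and the gap between genotypes was wider than the spread within either. Nanog averaged 596 ± 34.3 CPM in KO and 779 ± 7.06 CPM in WT (SD, n = 2 each). The log2 fold change of -0.39 had a 95% interval of -0.95 to 0.18 (edgeR FDR 0.39), which holds folds of 0.517 to 1.13. It stayed between -0.45 and -0.32 when each library was left out in turn. The pseudogenes Nanog-ps1 and Nanog-ps2 had at most 1 read in any library.

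Esrrb (ENSMUSG00000021255, chr12:86361117-86521628) had 5029 and 4910 reads in the KO libraries, against 7324 and 6087 reads in the WT libraries, or 602 and 582 CPM in KO and 778 and 662 CPM in WT. Both KO libraries were again below both WT libraries, which differed from each other by more than the lower of them differed from KO. The log2 fold change was -0.28 (95% interval -0.86 to 0.29, edgeR FDR 0.54). Sall4 (ENSMUSG00000027547, chr2:168748332-168767201) had 1963 and 1847 reads in the KO libraries, against 1701 and 1929 reads in the WT libraries, or 235 and 219 CPM in KO and 181 and 210 CPM in WT. In CPM its KO libraries were both above its WT libraries, with WT replicate 2 close below KO library F. The log2 fold change was 0.22 (95% interval -0.32 to 0.75, edgeR FDR 0.62). The overlapping gene Gm14261 had 45 and 87 reads in KO and 82 and 21 reads in WT.

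**Figure D1:**
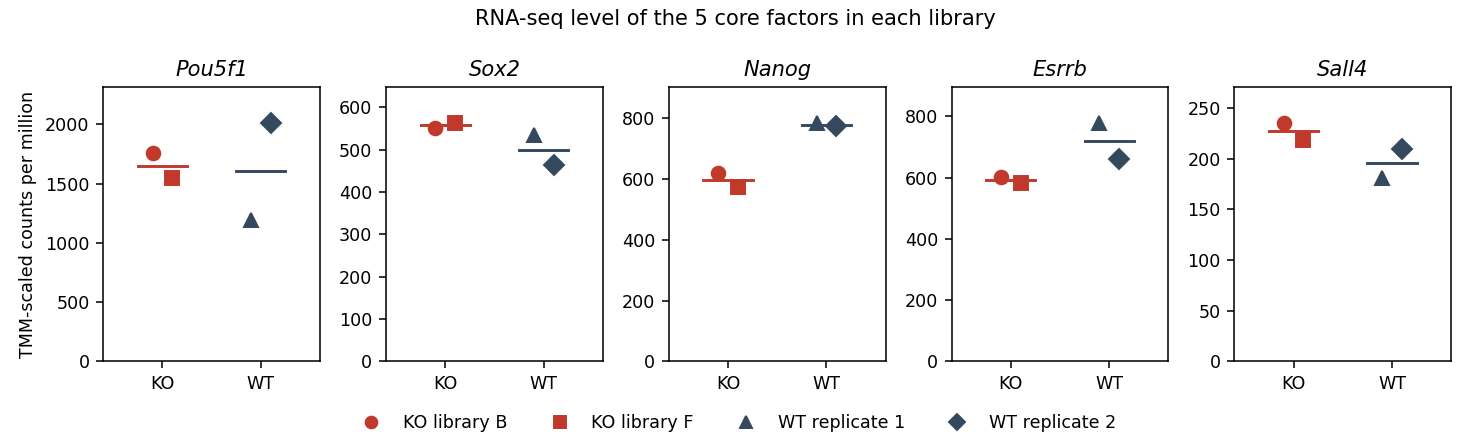
RNA-seq level of each core factor (vertical axis, TMM-scaled CPM, starting at 0) in KO libraries B and F and in WT replicates 1 and 2, with a bar at each mean. Nanog shows KO at 621 and 572 CPM below WT at 784 and 774 CPM, and Pou5f1 shows both KO values between WT values of 1196 and 2011 CPM.

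**Figure D2:**
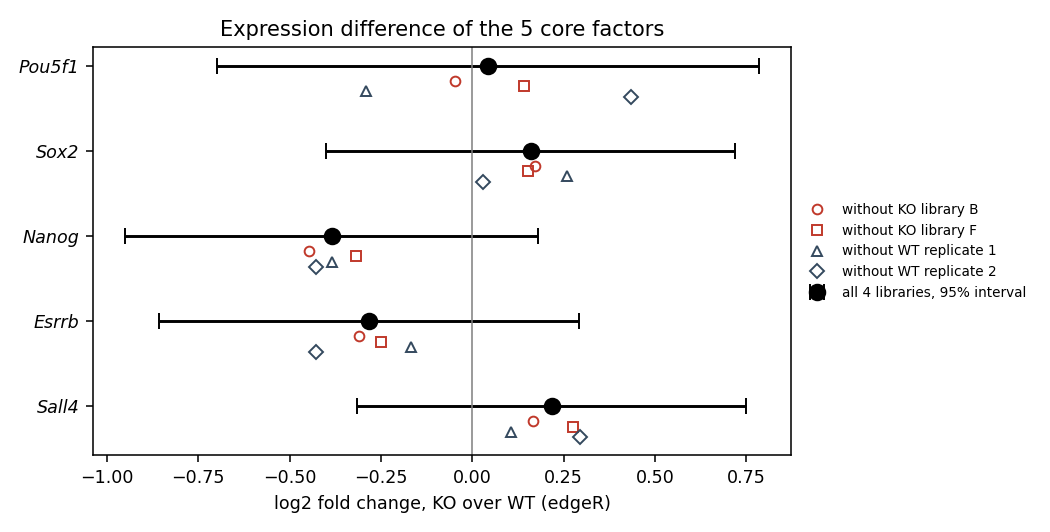
Log2 fold change of KO over WT from edgeR for each core factor (black points, bars are 95% intervals) and the same value with 1 library left out (open symbols). Every interval crosses 0, and the left-out values of Pou5f1 lie on both sides of it, at -0.29 without WT replicate 1 and 0.43 without WT replicate 2.

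Within a library, the ratio of 2 factors does not depend on how libraries are scaled, and 5 of the 10 ratios (50.0%) did not overlap between genotypes. This share was near that of all pairs among 8021 genes of at least 20 CPM, 54.6%, and the 10 ratios share 5 genes. Reads of Sox2 per read of Nanog were 0.889 and 0.983 in KO, against 0.681 and 0.599 in WT. Reads of Sox2 per read of Esrrb were 0.916 and 0.967 in KO, against 0.686 and 0.700 in WT. Both ratios were higher in both KO libraries than in both WT libraries. Reads of Nanog per read of Sall4 were 2.64 and 2.62 in KO, against 4.34 and 3.69 in WT, and reads of Esrrb per read of Sall4 were 2.56 and 2.66 in KO, against 4.31 and 3.16 in WT. Reads of Pou5f1 per read of Nanog also did not overlap, at 2.83 and 2.70 in KO and 1.53 and 2.60 in WT. The other 5 ratios overlapped, with mean differences of -0.13 to 0.37 on the log2 scale. Among them, reads of Nanog per read of Esrrb were 1.03 and 0.984 in KO and 1.01 and 1.17 in WT. An exact permutation test of 2 against 2 libraries cannot go below p = 0.333, and the ratios were not tested. Reads were not divided by exon length, so the levels of different factors are not ranked.

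The genes with the profile most like each factor over the 4 libraries, by the root mean square distance of centred log2 CPM among 7524 genes of at least 20 CPM, differed from factor to factor. Nearest to Pou5f1 were Dpm2, Mfsd5 and Ppp4c, with Dpm2 at 302 and 269 reads in KO and 235 and 382 reads in WT. Nearest to Sox2 were Zkscan5, Mre11a and Vps41, and nearest to Sall4 were Vrk1, Exosc9 and Stk40. Among the nearest to Nanog were Gak and Stard5, with log2 fold changes of -0.35 and -0.34. Nearest to Esrrb were Washc2, Dennd5a and Naa30. The distances were between 0.0092 and 0.0286 on the log2 scale, over only 4 libraries.

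Around the factors, 113 network genes were listed under 5 headings, and of the 98 tested, 16 rose (16.3%) and 7 fell (7.14%) in KLF4-KO cells, beside 2.96% and 5.34% of all tested genes, with a median log2 fold change of 0.31 beside -0.0015 for all tested genes. The lists were chosen with earlier results of these data known, so these shares are a description, and no set test was made. Among 24 genes known as OCT4 and SOX2 targets, 7 rose and 2 fell. Utf1, a chromatin-associated ESC factor, had 3082 and 3113 reads in KO, against 493 and 821 reads in WT (log2 fold change 2.38, edgeR FDR 0.0052). Mycn, a MYC family gene, had 1426 and 1410 reads in KO, against 649 and 530 reads in WT (log2 fold change 1.42, edgeR FDR 0.0123). The genes that fell were Fbxo15, an F-box gene, with 1089 and 916 reads in KO and 2188 and 2244 reads in WT, and Spp1, which encodes osteopontin, with 2400 and 3411 reads in KO and 7481 and 8423 reads in WT. Both lost the call when KO library B or KO library F was left out. Of the 7 that rose, Dppa4 lost its call without KO library B and without KO library F, Kdm4c without KO library F, and Jarid2 without KO library F and without WT replicate 2. The number of targets called higher fell without KO library F and rose without WT replicate 1, as did that of all tested genes. Fgf4, a target with a known OCT4 and SOX2 enhancer, had 3689 and 2474 reads in KO and 3033 and 3209 reads in WT, which overlapped (edgeR FDR 0.81).

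Of 26 relatives in the POU, SOX, ESRR and SALL families, 17 were tested, 4 rose and 0 fell. These were 23.5% and 0% of the tested relatives, beside 2.96% and 5.34% of all tested genes. Sox11, of the SOXC subgroup, had 189 and 159 reads in KO, against 18 and 10 reads in WT (log2 fold change 3.77, edgeR FDR 0.00376). Sox4, of the same subgroup, had 438 and 647 reads in KO, against 80 and 50 reads in WT (3.21, edgeR FDR 0.00357). Pou3f1, which encodes OCT6, had 193 and 134 reads in KO, against 29 and 37 reads in WT (2.45, edgeR FDR 0.0103). Pou2f2, which encodes OCT2, had 114 and 134 reads in KO, against 24 and 22 reads in WT (2.57, edgeR FDR 0.0087). All 4 are relatives of Pou5f1 or Sox2, and in each both KO libraries were above both WT libraries. Esrra, a relative of Esrrb, had 318 and 271 reads in KO and 253 and 364 reads in WT (edgeR FDR 0.90), and Sall1, Sall2 and Sall3 did not pass the test.

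Among 30 genes for known protein partners of the factors, such as subunits of the NuRD repressor complex and chromatin enzymes, 0 passed in edgeR, 9 had an unadjusted p under 0.05 (30.0%, beside 24.4% of all tested genes), DESeq2 called 1 and limma voom called 0. The median log2 fold change of this list was 0.37. Tet1, a 5-methylcytosine dioxygenase gene, had 3717 and 5104 reads in KO and 2566 and 1213 reads in WT (log2 fold change 1.38, edgeR FDR 0.0571, DESeq2 adjusted p 0.00275). Without WT replicate 1, 8 of the 30 partner genes were called higher, beside 7.09% of all genes tested in that fit. Chd4, the NuRD helicase gene, had 4229 and 4662 reads in KO and 3636 and 2993 reads in WT (edgeR FDR 0.20). Hdac1, a NuRD deacetylase gene, had 1679 and 1818 reads in KO and 1633 and 1766 reads in WT (edgeR FDR 0.67).

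Of 24 regulators that act on or beside the core, 2 rose and 2 fell (8.33% each, beside 2.96% and 5.34% of all tested genes). Otx2, a homeobox factor of the formative epiblast that is also in the target list, had 324 and 454 reads in KO, against 45 and 38 reads in WT (log2 fold change 3.37, edgeR FDR 0.00249). Zic2, a zinc finger gene, had 242 and 210 reads in KO, against 107 and 99 reads in WT (1.28, edgeR FDR 0.0369). Tfcp2l1, a naive pluripotency factor, had 1698 and 2314 reads in KO, against 9987 and 6629 reads in WT (-1.90, edgeR FDR 0.0108). Tbx3, a T-box factor, had 1050 and 1432 reads in KO, against 3565 and 2744 reads in WT (-1.20, edgeR FDR 0.0319). Tbx3 lost the call when KO library B or F was left out, and Zic2 when KO library B, KO library F or WT replicate 2 was left out. The number of regulators called higher also rose when WT replicate 1 was left out, as did that of all tested genes.

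OCT4 is known to hold back the trophoblast lineage in ESCs. In the list of trophoblast and primitive endoderm genes, 13 of 21 were tested, 4 rose and 3 fell. These were 30.8% and 23.1% of those tested, beside 2.96% and 5.34% of all tested genes. Gata6, a primitive endoderm regulator, rose to 25 and 24 reads in KO, against 4 and 3 reads in WT (log2 fold change 2.91, edgeR FDR 0.0264), a call lost without KO library B, without KO library F and without WT replicate 2. Lamb1 had 854 and 715 reads in KO, against 346 and 247 reads in WT (1.55, edgeR FDR 0.0145), while Lama1, another laminin gene, had 356 and 575 reads in KO, against 2201 and 1531 reads in WT (-1.85, edgeR FDR 0.0124). Sparc, a matrix protein gene, had 779 and 721 reads in KO, against 2297 and 2636 reads in WT (-1.57, edgeR FDR 0.00916), and lost the call without KO library F. Fewer genes of this list were called higher without KO library B, without KO library F and without WT replicate 2. Over all tested genes, the number called higher fell without KO library B or F and rose without WT replicate 2. Over the 5 lists, 23 genes were called with all libraries. This number fell without KO library F and rose without WT replicate 1, as did the number called over all tested genes.

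**Figure D3:**
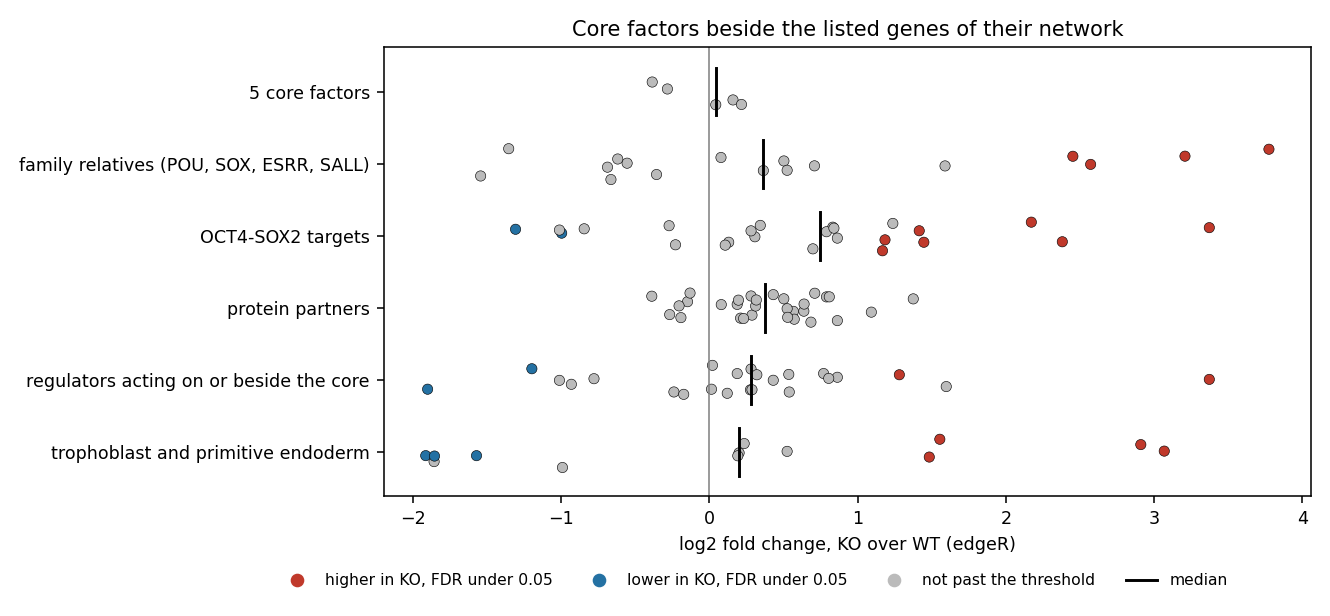
Log2 fold change of KO over WT (horizontal axis, edgeR) for the 5 core factors and for the tested genes of the 5 lists, 1 point per gene; red points were higher and blue points lower in KO at FDR 0.05, grey points did not pass and black lines are medians. The core factors lie between -0.39 and 0.22, while the lists spread from -1.91 to 3.77 with 16 red genes and 7 blue ones, some in more than 1 list.

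Of 29 tested genes that start within 200 kb of a core factor, 1 rose and 2 fell (10.3%, beside 8.30% of all tested genes). Psors1c2, near Pou5f1, had 62 and 57 reads in KO, against 16 and 22 reads in WT (log2 fold change 1.79, edgeR FDR 0.0474). Gdf3, a TGF-beta family ligand gene near Nanog, had 404 and 410 reads in KO, against 909 and 1082 reads in WT (-1.14, edgeR FDR 0.0272). Atp9a, a phospholipid flippase gene near Sall4, had 406 and 426 reads in KO, against 913 and 1121 reads in WT (-1.14, edgeR FDR 0.0286). In each, both KO libraries lay on 1 side of both WT libraries. Each of the 3 calls was lost when KO library B or F was left out, and Psors1c2 also lost its call when WT replicate 1 or 2 was left out.

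RNA polymerase II PETs were found at all 5 core factors in the KO pool and at 4 of them in the WT pool. The KO pool held 401726 PETs on 18293 anchors that cover 66996 kb, and the WT pool 35189 PETs on 8373 anchors that cover 18973 kb. Counts are therefore given per 100000 PETs of the pool with an exact Poisson 95% interval, which covers counting error only. For a count of 0 the limit given is that of 3 PETs, 8.53 per 100000 in the WT pool, where the exact interval reaches 10.48. With 1 pool per genotype there was no test, and genotype, depth and anchor calling cannot be told apart. Sall4 had 259 PETs in the KO pool (64.5 per 100000, 56.9 to 72.8) and 0 PETs in the WT pool, which by the limit of 3 PETs allows up to 8.53 per 100000. Among 21887 protein-coding genes, 53.4% had a PET in the KO pool and 38.0% in the WT pool.

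Nanog had 407 PETs in the KO pool (101 per 100000, 91.7 to 112), against 70 PETs in the WT pool (199 per 100000, 155 to 251). Sox2 had 103 PETs in the KO pool (25.6 per 100000, 20.9 to 31.1), against 31 PETs in the WT pool (88.1 per 100000, 59.9 to 125). For these 2 genes the KO value was lower and the intervals did not overlap. Pou5f1 had 375 PETs in the KO pool (93.3 per 100000, 84.1 to 103), against 20 PETs in the WT pool (56.8 per 100000, 34.7 to 87.8), with overlapping intervals at the 5 kb window. Esrrb had 1150 PETs in the KO pool (286 per 100000, 270 to 303), against 93 PETs in the WT pool (264 per 100000, 213 to 324), also overlapping. The Pou5f1 counts include 65 KO PETs and 16 WT PETs with an end in an anchor at the neighbouring gene Tcf19, inside the 5 kb window.

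By PET count, Esrrb stood above 99.8% of the 21887 genes in the KO pool and 99.6% in the WT pool. Nanog stood above 99.0% in the KO pool and 99.4% in the WT pool. Pou5f1, with the PETs of the Tcf19 anchor counted, stood above 98.7% in the KO pool and 95.9% in the WT pool. Sox2 stood above 91.7% in the KO pool and 97.8% in the WT pool. Genes were not matched for length, and Esrrb spans 160512 bases. The share of PETs with both ends in 1 anchor was 41.1% in the whole KO pool and 32.97% in the whole WT pool. It was 40.0% in the KO pool and 14.3% in the WT pool at Nanog, 61.7% in the KO pool and 26.9% in the WT pool at Esrrb, and 42.4% in the KO pool and 20% in the WT pool at Pou5f1. At Sox2 it was 45.6% in the KO pool and 48.4% in the WT pool. KO anchors were wider, with a median of 2932 bases against 1999 bases in WT, and at Nanog and Esrrb 1 KO anchor covered ground that the WT pool split into several.

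**Figure D4:**
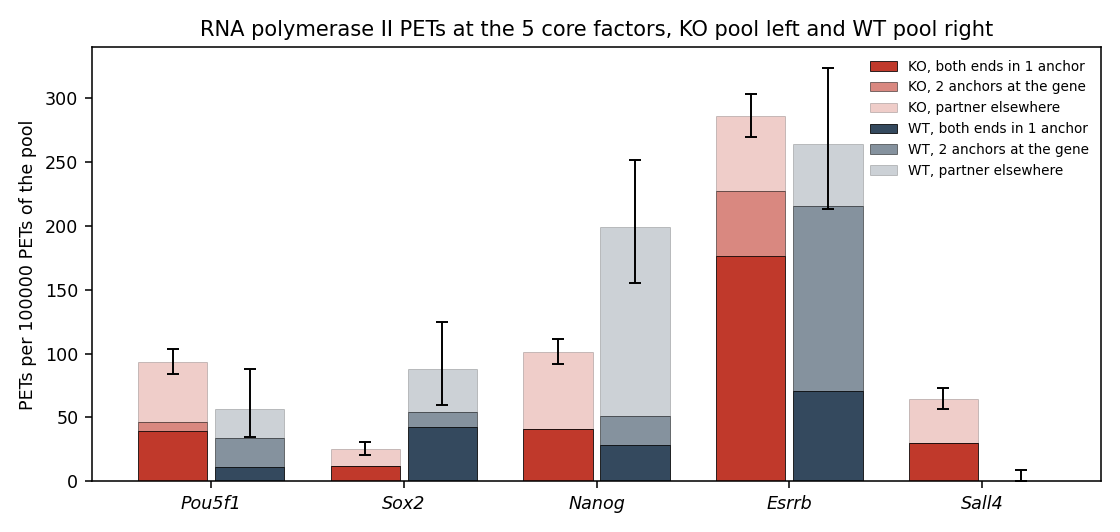
RNA polymerase II PETs at each core factor per 100000 PETs of the pool (vertical axis), KO pool left and WT pool right, split by shade into PETs with both ends in 1 anchor, between 2 anchors at the gene, and to a partner elsewhere on the chromosome. Whiskers are exact Poisson 95% intervals, except at 0 for Sall4 in WT, where the whisker is the limit of 8.53 set by 3 PETs; Nanog and Sox2 are lower in the KO pool, at 101 against 199 and at 25.6 against 88.1.

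Within 200 kb the 5 genes had 32 partner sites, all 32 with a PET in the KO pool and 8 of them with a PET in the WT pool. The whole KO pool held 118475 anchor pairs and the WT pool 19914, so a missing WT PET cannot be told apart from lower depth. Of the 32, 9 overlapped no annotated gene, and 9 held a start from the annotated start sequences. These have no entry for some genes, such as Slc2a3 and Gdf3 near Nanog, so 9 is a lower limit. At Sox2, 36 of 42 KO PETs and all 8 WT PETs within 200 kb went to 1 site, chr3:34754817-34765567, centred 110 kb beyond the start and overlapping no annotated gene. The Sox2 control region, the main distal enhancer of Sox2 in mouse ESCs, is known to lie downstream of the gene in this region. Scaled to the pool, this contact stood at 8.96 per 100000 in KO (6.28 to 12.4), against 22.7 per 100000 in WT (9.82 to 44.8). The intervals overlapped.

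Nanog had 11 partner sites within 200 kb, 5 of them in both pools, on either side of the gene. The site with the most PETs, chr6:122726248-122746591, which overlaps 1 end of the glucose transporter gene Slc2a3, had 64 PETs in the KO pool and 30 PETs in the WT pool. This was 15.9 per 100000 in KO (12.3 to 20.3), against 85.3 per 100000 in WT (57.5 to 122), the largest difference in PETs per 100000 among the 8 sites within 200 kb that had PETs in both pools. By ratio, a site of Esrrb with 4 PETs in the KO pool and 2 PETs in the WT pool (0.996 and 5.68 per 100000) lay further apart. The next, chr6:122757921-122774326, inside Slc2a3 and centred 58.6 kb from the Nanog start, had 45 PETs in the KO pool and 2 PETs in the WT pool, or 11.2 and 5.68 per 100000 with overlapping intervals. A site 45.0 kb before the start, chr6:122660687-122664252, overlapped no annotated gene and had 11 PETs in the KO pool and 0 PETs in the WT pool. This was 2.74 per 100000 in KO (1.37 to 4.90), inside the exact WT interval, which reaches 10.48. Enhancers on both sides of Nanog are known in mouse ESCs.

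Gdf3 and Phc1, both at Nanog partner sites, passed the expression test in opposite directions. Gdf3, whose site chr6:122601313-122611406 it shares with Apobec1, had 13 PETs with Nanog in the KO pool (3.24 per 100000, 1.72 to 5.53) and 5 PETs in the WT pool (14.2 per 100000, 4.61 to 33.2), and its transcript fell as given above. Phc1, a polycomb gene whose site chr6:122331581-122347198 lies 360 kb away and so beyond the window, had 9 PETs with Nanog in the KO pool (2.24 per 100000, 1.02 to 4.25) and 4 PETs in the WT pool (11.4 per 100000, 3.10 to 29.1). At both sites the scaled value was lower in KO and the intervals overlapped. Its transcript rose to 7765 and 7537 reads in KO, against 3286 and 3123 reads in WT (log2 fold change 1.40, edgeR FDR 0.0145), a call lost when KO library B or F was left out. Slc2a3 had 12462 and 11714 reads in KO and 22760 and 17219 reads in WT, with KO below WT and no call (log2 fold change -0.58, edgeR FDR 0.26).

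At Pou5f1 the KO pool had 85 PETs to 7 sites within 200 kb, or 21.2 per 100000 (16.9 to 26.2), and the WT pool had 0, which by the limit of 3 PETs allows up to 8.53 per 100000. The leading site, chr17:35485822-35491042, lies 15.0 kb before the gene, overlaps no annotated gene and had 39 PETs. This was 9.71 per 100000 in KO (6.90 to 13.3), which overlaps the exact WT interval, up to 10.48. The next site, chr17:35516703-35518597, holds the starts of Tcf19 and Cchcr1 and had 22 PETs. This was 5.48 per 100000 in KO (3.43 to 8.29), inside the exact WT interval. Tcf19, a PHD finger gene, had 259 and 221 reads in KO and 105 and 142 reads in WT (log2 fold change 1.10, edgeR FDR 0.0687). Both pools joined Pou5f1 to Tcf19, through an anchor within 5 kb of Pou5f1 that so counted as part of its own locus. It was chr17:35513429-35515889 with 65 PETs in the KO pool and chr17:35514006-35515889 with 16 PETs in the WT pool. PETs between anchors of the locus numbered 28 in the KO pool and 8 in the WT pool. PETs from the Tcf19 anchor to other sites are counted with those of Pou5f1. The anchors on Pou5f1 itself carried 338 PETs in the KO pool, and 7 and 5 PETs in the WT pool. PETs between anchors of the locus are counted at each. Of the 20 WT PETs given to Pou5f1, 16 had an end in the Tcf19 anchor, so the WT value rests largely on that anchor.

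Neither of the 2 annotated starts of Esrrb lay in an anchor of either pool. The nearest KO anchors were 33.9 and 24.2 kb from them, and the nearest WT anchors 108 and 47.9 kb. Of all annotated starts, 33.2% lay in an anchor in the KO pool and 21.5% in the WT pool. The PETs sat in the distal part of the gene instead, where 1 KO anchor, chr12:86478967-86515449, carried 986 of the 1150 KO PETs. The WT pool had 8 smaller anchors that touch the gene, and 51 of its 93 PETs joined anchors within the locus, as did 204 PETs in the KO pool. Partners within 200 kb were few, with 12 PETs in the KO pool and 3 PETs in the WT pool. A site beyond that window, chr12:86874554-86926893, which holds the start of Irf2bpl, had 51 PETs in the KO pool and 0 PETs in the WT pool. Irf2bpl had 776 and 1085 reads in KO and 1846 and 1397 reads in WT (edgeR FDR 0.18). Which exons or introns of Esrrb the anchors cover was not analysed here.

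Sall4 had 73 PETs to 8 sites within 200 kb in the KO pool and no anchor at the gene in the WT pool. The leading site, chr2:168775147-168778507, lies 7.95 kb from the gene, overlaps no annotated gene and had 29 PETs. This was 7.22 per 100000 in KO (4.83 to 10.4), inside the exact WT interval, which reaches 10.48. A site at the start of the zinc finger gene Zfp64 had 13 PETs, and 3 sites in Atp9a had 11, 5 and 5 PETs. Zfp64 stood at 66.5 and 79.0 CPM in KO and 77.1 and 103 CPM in WT, which overlapped (edgeR FDR 0.51). With the gene extended by 20 kb in place of 5 kb, the WT pool showed 11.4 PETs per 100000 at Sall4, against 74.2 in the KO pool.

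**Figure D5:**
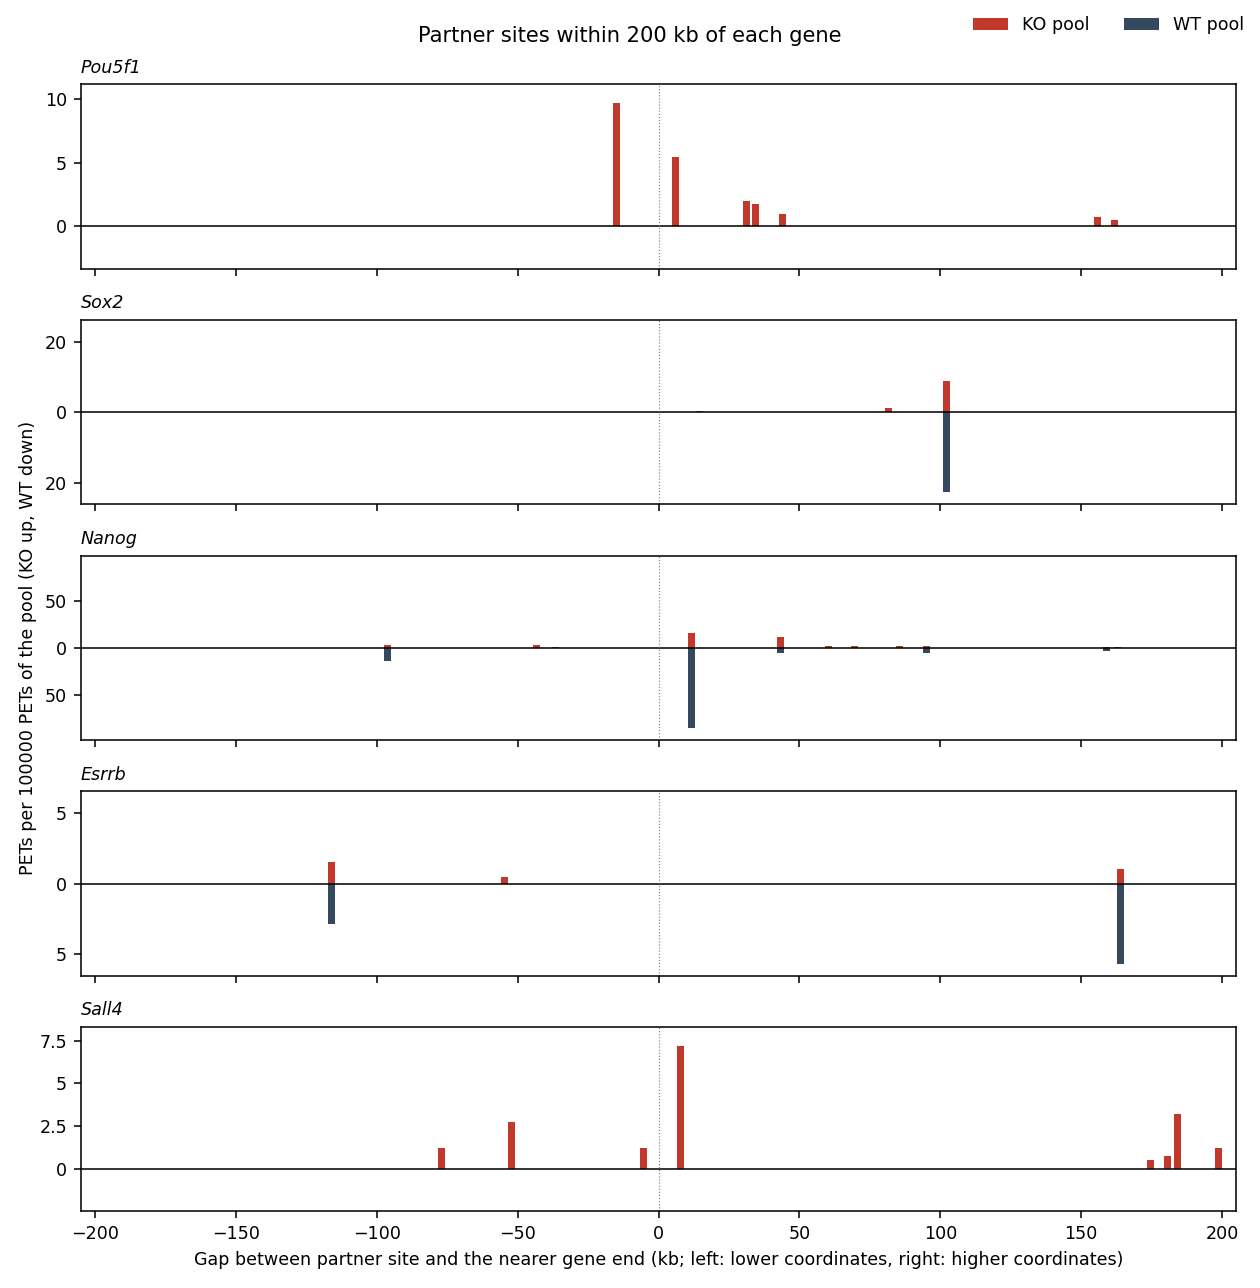
Partner sites within 200 kb of each core factor: horizontal axis, gap in kb between the site and the nearer end of the gene; vertical axis, PETs per 100000 PETs of the pool, KO upward in red and WT downward in blue, with a scale of its own for each gene. The leading distal site of Sox2 stands at 8.96 in KO and 22.7 in WT, the nearest Slc2a3 site of Nanog at 15.9 in KO and 85.3 in WT, and Pou5f1 and Sall4 have no WT bar.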

How the data were processed

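RNA was measured in 2 KLF4-KO and 2 WT libraries, and RNA polymerase II contacts in 1 HiChIP pool per genotype. The deposited gene values are whole-number counts of reads per Ensembl gene, not normalised; the submitters' processing notes name HISAT2 2.1.0, HTSeq 0.9.1, DESeq2 1.18.1, HiC-Pro 2.11.4 and mm10. The deposited HiChIP counts are PETs between pairs of anchors, pooled over replicates by the authors, per the file names. No source used here gives the loop caller, the filters or the strand setting. Records in genes made up 34.5% to 36.0% of each file; all others (no gene, ambiguous, unaligned, low quality, several alignments) entered neither library sizes nor tests.

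The main test was the quasi-likelihood F-test of edgeR 4.0.16 (R 4.3.3) after filterByExpr and TMM scaling, with Benjamini-Hochberg adjustment over 15517 genes at FDR 0.05, with DESeq2 1.42.0 and limma voom 3.58.1 as alternatives, after a test on simulated data. Symbols came from a supplied table that matched 52403 of 52636 identifiers. Gene positions and start sequences came from RefSeq on GRCm38.p6, and gene starts from its table of start sequences. For neighbours, where a gene has no entry, the gene end nearer to the window was used. At partner sites and anchors, only genes with an entry could have a start. Levels per exon length were not computed, because no exon lengths were used here. No tests were made on HiChIP pools. Members and lists were chosen with earlier results of these data known. Named genes are the members, Klf4, the calls of each list with the smallest p, neighbours that passed, genes at leading partner sites and the nearest profiles, some of which are not reported here; Fbxo15, Spp1, Kdm4c, Jarid2, Fgf4, Esrra, Tet1, Chd4, Hdac1 and Zfp42 were chosen after their values were seen.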

Additional observations from a re-analysis of the deposited data

How the results depend on the processing

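Sox2, Nanog, Esrrb and Sall4 kept their direction and stayed short of the threshold in all 10 alternative fits (RLE factors, library totals, DESeq2, limma voom, 2 other filters and each library left out), with log2 fold changes of 0.03 to 0.26, -0.45 to -0.32, -0.43 to -0.17 and 0.11 to 0.30. Pou5f1 changed sign without KO library B (-0.05) and without WT replicate 1 (-0.29), and ranged from -0.29 to 0.43 with 1 library left out. The number of genes called was 2 with no filter on low counts and 1013 to 2517 with 1 library left out. For the listed network genes it was 0 with no filter and 14 to 39 with 1 library left out, and for the neighbours 0 with no filter and 0 to 3 with 1 library left out; the cause was not tested. With 1 library in a group, that library is assumed to vary like the others. No paired analysis was possible because the KO columns carry letters and no replicate numbers.

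PETs per 100000 depend on the window and the total. With the gene not extended they were 84.1 in KO and 34.1 in WT for Pou5f1 and 145 in WT for Nanog. With 20 kb they were 111 for Pou5f1, 133 for Nanog and 74.2 for Sall4 in KO, and 506 for Nanog and 11.4 for Sall4 in WT. With pairs of at least 2 PETs they were 115 for Nanog and 324 for Esrrb in KO, and 271 for Nanog, 128 for Sox2 and 325 for Esrrb in WT. Per 100000 PETs of the gene's own chromosome they were 1495 in KO and 785 in WT for Pou5f1, 626 in KO and 2147 in WT for Sox2, 1746 in KO and 4584 in WT for Nanog, 9930 in KO and 10119.7 in WT for Esrrb, and 716 in KO for Sall4. With pairs of distinct anchors alone, an alternative chosen after seeing the data, they were 186 in KO for Esrrb and 254 in WT for Nanog. Partner sites up to 500 kb gave 32.4 for Pou5f1, 52.0 for Nanog and 32.1 for Esrrb in KO. Pairs of at least 2 PETs within 200 kb gave 54.4 in KO and 172 in WT for Nanog, and 0 in WT for Esrrb. Nanog and Sox2 stayed lower in the KO pool in each of these. Pou5f1 was higher in the KO pool with the gene not extended and per chromosome, as with 5 kb. Intervals were computed for the main setting only, so whether those of Pou5f1 overlap in the alternatives was not assessed. The WT pool holds under 100 PETs at each gene, and 0 at Sall4, which limits what it can show.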
